A study of Mus musculus with 6 samples.

Results

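Srebf1, Srebf2, Scap, Insig1, Mylip, Nr1h2, Abca1, Abcg1 and Apoe form a small set of genes that sense and export cholesterol or control its synthesis and uptake. They were taken by name from a table of 23505 gene rows, and all 9 had a row and enough counts to be tested among 10509 genes. The libraries came from CD4+ T cells of wild-type mouse liver, sorted by flow cytometry as cells with CD3 and CD4 and without NK1.1 or CD8. Mice of both groups received ConA, short for concanavalin A, a lectin used in mice to provoke T cell-driven hepatitis. The ConA+SIM group was gavaged with simvastatin at 30 mg/kg, a statin that blocks the rate-limiting step of cholesterol synthesis. The protocol names phosphate-buffered saline as the other gavage, taken here as that of the ConA group from the titles. Gavage was daily for 5 days before ConA, 1 h before it and 24 h after it. Each group held 3 libraries, numbered 1 to 3 in the titles, and the labels do not say whether a library is 1 mouse or a pool. They give no age, sex or strain, and no group without ConA was analysed here.

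Cells keep their cholesterol within narrow limits through a pair of opposed transcription programs. Srebf1 and Srebf2 encode SREBP1 and SREBP2, membrane-bound transcription factors that the escort protein Scap carries out of the endoplasmic reticulum when sterols are scarce, and that Insig1 holds back when sterols are plentiful. Released SREBP2 mainly drives cholesterol synthesis and uptake genes, and SREBP1 mainly fatty acid synthesis genes. The liver X receptors, of which Nr1h2 encodes the broadly expressed LXR beta, sense oxysterols and switch on Abca1 and Abcg1, which export cholesterol, Apoe, a carrier of lipid particles, and Mylip, a ubiquitin ligase that sends lipoprotein receptors to degradation. Srebf1 is itself an LXR target, and in T cells this balance is known to affect proliferation.

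Total counts per library ran from 17549429 to 25031862. Replicates of 1 group differed strongly: the biological coefficient of variation common to the genes was 1.12. ConA+SIM replicate 2 stood apart, since 18.4% of the tested genes had no count there, while the other 5 libraries had between 2.76% and 9.98%. The markers that the sort selected for were present, with Cd3e at 154 to 409 CPM and Cd4 at 441 to 766 CPM (counts per 1000000 of the scaled library total). Of those sorted against, Cd8a was at 0 to 15.9 CPM. Cd8b1 was at 17.2, 33.1 and 4.64 CPM in ConA and at 21.8, 54.1 and 42.2 CPM in ConA+SIM. Klrb1c, the NK1.1 gene, was at 6.69, 17.6 and 20.0 CPM and at 43.5, 43.5 and 39.0 CPM. Its ConA+SIM libraries lay above the ConA libraries, an order seen in 9.18% of tested genes. Markers of cells outside the sort were also found. Summed levels did not overlap between the groups for 8 tested NK cell and ILC1 markers (393 to 562 CPM in ConA, 725 to 1032 CPM in ConA+SIM), 7 neutrophil markers (331 to 590 and 618 to 963 CPM) and 5 erythroid and platelet markers (43.8 to 115 and 229 to 343 CPM). Of these, 7 of 8 NK cell and ILC1 markers and 5 of 5 erythroid and platelet markers had higher values in ConA+SIM. Only 2 of the 7 neutrophil markers did, and 5 had lower values (median log2 fold change -0.45). The 2 were S100a8, with means of 106 and 283 CPM in ConA and ConA+SIM, and S100a9, with 180 and 414 CPM. Sums overlapped for T cell (2489 to 3925 and 3796 to 4050 CPM), CD8 T cell (4.72 to 33.1 and 26.3 to 54.1 CPM), B and plasma cell (114 to 1293 and 500 to 953 CPM) and dendritic cell markers (109 to 161 and 120 to 249 CPM), and 0 of 8 stellate cell markers were tested. Single dendritic cell markers went both ways, with 4 of 7 higher and 3 lower in value. In 2 of the 7 the ConA+SIM libraries lay above the ConA libraries, and in 0 below. Of 9 tested T cell markers, 5 had higher and 4 lower values, and 0 were called, against 0.542% of tested genes. In 3 of them, Cd3d, Cd3g and Cd247, the ConA+SIM libraries lay above the ConA libraries, and in 0 below. These orders were seen in 9.18% (above) and 8.57% (below) of tested genes. The part of cells outside the sort in the values below was not tested.

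Sequences are shown first for Srebf2 and Apoe, the 2 genes with an unadjusted p under 0.05 in the comparison below, and then for Abca1 and Abcg1. RefSeq promoter windows of 300 bases, from 250 before the start site to 50 after it, were at hand for 8 of the 9 genes, as 13 windows on GRCm38.p6. Searched on both strands, the classical sterol element core TCACCCCAC was in 0 of the 13 windows and in 0.551% of all 32851 windows. Its form with a free base, TCACNCCAC, was also in 0 of the 13, against 1.24% of all. For the direct repeat bound by LXR, only a strict and a looser form were searched. Each form was in 0 of the 13 windows, against 0.0152% and 0.0761% of all windows. Repeats that depart from these forms were not searched, so the counts do not show that LXR elements are absent. The shorter core TCACCCCA, which overlaps the longer one and was chosen after the Srebf2 window had been read, was in 1 window each of Srebf2 and Apoe, against 1.56% of all windows. It was in 0 windows of the other 6 genes with a window, among them Scap, whose levels also separated the groups. Counted from the start site, it began at position -162 in the Srebf2 window and at -213 in the third of 3 Apoe windows. GC boxes, GGGCGG, were in 8 of the 13 windows, from 6 genes, against 35.7% of all windows. CCAAT boxes were in 5 of the 13, from 4 genes, against 37.4%. Srebf2 alone carried 5 GC boxes in its window. E-boxes, CANNTG, were in 10 of the 13, from 7 genes, against 72.3%. Some windows of the same gene overlap, so windows are not independent. In both windows below, read 5′ to 3′ on the strand of the gene, capitals mark the shorter sterol core, CCAAT boxes and GC boxes on either strand. The Srebf2 window is chr15:82147019-82147318 on the plus strand and the Apoe window chr7:19699139-19699438 on the minus strand.
Srebf2 promoter: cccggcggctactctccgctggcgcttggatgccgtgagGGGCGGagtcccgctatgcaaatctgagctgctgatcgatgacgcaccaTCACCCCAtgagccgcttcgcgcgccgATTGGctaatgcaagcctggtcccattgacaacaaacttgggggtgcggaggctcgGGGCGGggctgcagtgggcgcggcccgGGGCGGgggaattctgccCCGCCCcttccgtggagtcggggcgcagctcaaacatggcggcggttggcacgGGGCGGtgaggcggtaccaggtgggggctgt
Apoe promoter: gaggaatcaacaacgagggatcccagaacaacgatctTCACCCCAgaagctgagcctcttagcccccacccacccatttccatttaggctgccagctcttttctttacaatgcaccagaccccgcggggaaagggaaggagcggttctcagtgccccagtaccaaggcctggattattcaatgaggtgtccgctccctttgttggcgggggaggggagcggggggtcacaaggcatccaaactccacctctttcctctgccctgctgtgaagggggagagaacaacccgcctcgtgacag

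An intron of Srebf2 holds the microRNA gene Mir33 (chromosome 15, mature 5p arm at 82198127 to 82198147), known to repress the cholesterol exporters. The microRNA itself was not analysed here, so the sites are a feature of the sequences and not a measurement. Matches to its seed, CAATGCA in the transcript, were counted in the 3′ untranslated regions of GENCODE release M21 transcripts, 1 transcript per gene. Such a match was in 6.61% of 20852 genes, 2 or more matches in 0.604% and 3 or more in 0.0528%. Abca1 had 3 matches in 3156 nt and Abcg1 had 2 in 3703 nt, while the other 7 genes had 0. The Abca1 matches began at bases 135, 140 and 150 of its untranslated region, so that the first overlapped the second, and those of Abcg1 at bases 717 and 727. The mature sequence from RefSeq is printed with its seed in capitals, and each site with the seed match in capitals.
miR-33-5p: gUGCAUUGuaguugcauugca
Abca1 site 1: tgacactattCAATGCAatgca
Abca1 site 2: ctattcaatgCAATGCActtca
Abca1 site 3: caatgcacttCAATGCAacgag
Abcg1 site 1: taacgcaacgCAATGCAacgca
Abcg1 site 2: caatgcaacgCAATGCAgacag

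None of the 9 genes was called between ConA+SIM and ConA by the edgeR quasi-likelihood test at an adjusted p of 0.05, where 0.542% of tested genes were called, 57 higher and 0 lower. At an unadjusted p under 0.05, 558 genes had higher and 372 lower values. By DESeq2, 5.28% of tested genes passed (356 higher, 199 lower), with no adjusted p for 5709 genes. Limma-voom called 108 higher and 7 lower, 1.09% of those tested. Of the 9 genes, 2 had an unadjusted p under 0.05, Srebf2 and Apoe, both at lower values in ConA+SIM. DESeq2 called those 2 and limma-voom 0 of the 9. Values were lower in ConA+SIM for 6 of the 9 and higher for 3, with a median log2 fold change of -0.33 against -0.041 over all tested genes. In Srebf2, Scap and Apoe the 3 ConA+SIM libraries lay below the 3 ConA libraries, a pattern seen in 8.57% of tested genes. The reverse order was seen in 0 of the 9 and in 9.18% of tested genes.

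**Figure D1:**
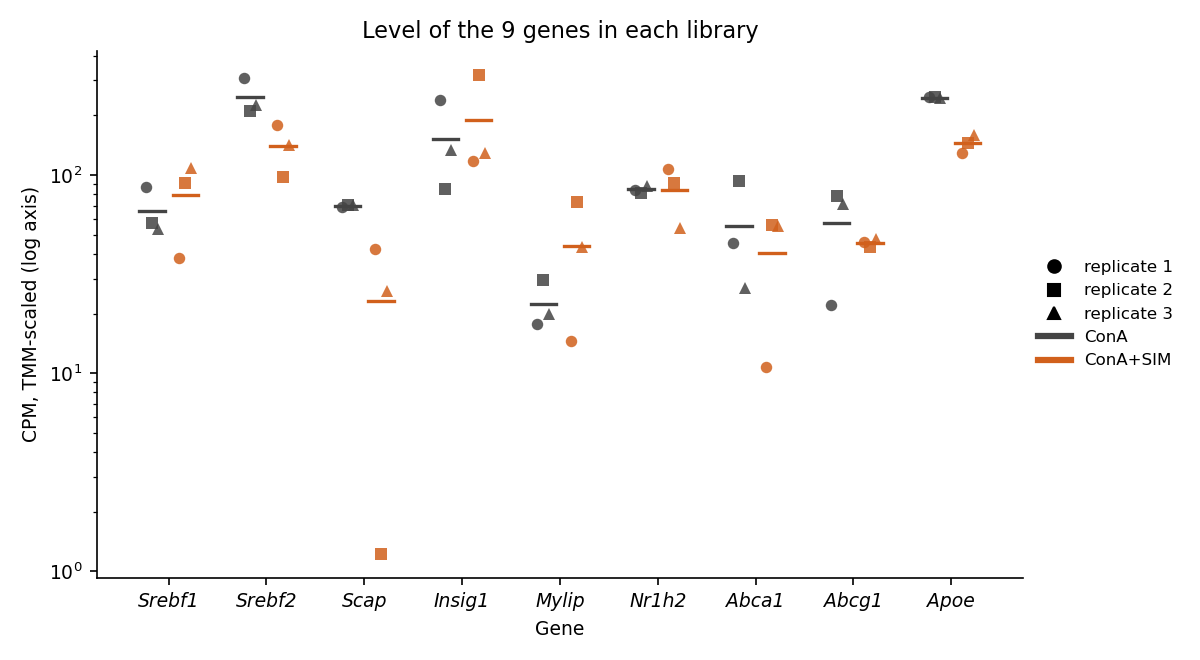
Level of each gene in CPM on a log axis, with a symbol for each of the 3 replicates of ConA (grey) and ConA+SIM (orange) and a bar at the group mean. Srebf2, Scap and Apoe have no overlap between the groups, and Scap is at 1.23 CPM in ConA+SIM replicate 2.

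Srebf2, the SREBP2 gene (chromosome 15, 82147269 to 82205379, plus strand), stood at 310, 210 and 226 CPM in ConA replicates 1 to 3 and at 179, 98.1 and 142 CPM in ConA+SIM replicates 1 to 3. Every ConA+SIM library was below every ConA library, and the closest values, 179 and 210, were near each other relative to the spread within a group. The means were 248 ± 53.7 and 140 ± 40.4 CPM (SD, n = 3 in each). That is a log2 fold change of -0.83 ± 0.30 (SE, 95% interval -1.52 to -0.15; edgeR adjusted p = 0.419). The interval excluded 0 before adjustment, and the adjusted test was not passed. With DESeq2 the log2 fold change was -0.85 and the adjusted p was 0.031, while limma-voom gave an adjusted p of 0.311. Without ConA+SIM replicate 2 the log2 fold change was -0.63 (edgeR adjusted p = 0.569), and with offsets for transcript length it was -0.52.

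Srebf1, the SREBP1 gene (chromosome 11, 60199084 to 60224186, minus strand), varied widely from library to library. It stood at 86.7, 57.1 and 53.1 CPM in ConA and at 38.1, 91.4 and 108 CPM in ConA+SIM. The lowest and the highest library both belonged to ConA+SIM, so the groups overlapped throughout. Its fitted log2 fold change was 0.27 ± 0.47 (95% interval -0.79 to 1.33, edgeR adjusted p = 0.999), and it was -0.021 without ConA+SIM replicate 3. Per kilobase of transcript, the level of Srebf2 was 3.02, 3.11 and 3.60 times that of Srebf1 in the ConA libraries, and 3.97, 0.909 and 1.11 times in the ConA+SIM libraries. This ratio was formed after the values had been seen. Thus Srebf2 was the more abundant transcript in 3 of 3 ConA libraries, and in ConA+SIM the pair were near equal in replicates 2 and 3 and not in replicate 1. The Srebf1 gene shares its last 114 bases with the neighbouring gene Rai1, and the sources used here do not say whether counting used strand.

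Scap, the escort of both SREBPs (chromosome 9, 110333288 to 110384949, plus strand), was at 68.8, 71.0 and 70.3 CPM in ConA and at 42.2, 1.23 and 25.9 CPM in ConA+SIM. The ConA libraries lay within 68.8 to 71.0 CPM, whereas the ConA+SIM libraries spread 34.5-fold. ConA+SIM replicate 2 held 21 Scap counts (95% exact Poisson interval 13 to 32.1 counts or 0.758 to 1.87 CPM, for counting error alone). For Scap the log2 fold change was -1.60 ± 0.95 (95% interval -3.74 to 0.54, edgeR adjusted p = 0.791). It was -1.04 without ConA+SIM replicate 2, the library with the most genes at 0, -2.36 without ConA+SIM replicate 1, and -2.54 with limma-voom (adjusted p = 0.4995). Without ConA+SIM replicate 2, the 2 remaining ConA+SIM libraries were below all ConA libraries. The part of that library's zero counts in the Scap value was not tested.

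Insig1, the retention factor and itself a target of SREBP2 (chromosome 5, 28071412 to 28078662, plus strand), did not separate the groups. Its values were 240, 84.9 and 133 CPM in ConA and 118, 321 and 129 CPM in ConA+SIM. One library in each group was high, ConA replicate 1 and ConA+SIM replicate 2, and the other libraries lay between 84.9 and 133 CPM. The log2 fold change of 0.31 ± 0.49 (95% interval -0.78 to 1.40, edgeR adjusted p = 0.999) turned to -0.30 without ConA+SIM replicate 2. That interval leaves the direction undetermined with 3 libraries a group.

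Mylip, the ubiquitin ligase (chromosome 13, 45389742 to 45411940, plus strand), had the highest fold change of the 9 genes. It stood at 17.7, 29.6 and 19.9 CPM in ConA and at 14.5, 73.4 and 43.3 CPM in ConA+SIM. ConA+SIM replicates 2 and 3 lay above all ConA libraries and replicate 1 below all of them. In the fit, its log2 fold change was 0.96 ± 0.75 (95% interval -0.73 to 2.65, edgeR adjusted p = 0.936), and 0.37 without ConA+SIM replicate 2. Over the 6 libraries its pattern had r = 0.629 with Abca1, 0.122 with Abcg1 and -0.293 with Apoe, the other LXR targets, which among themselves had r from 0.105 to 0.459 (Pearson r on log2 CPM, as a description). In ConA+SIM replicate 2 it was at its highest, where Srebf2 and Scap were at their lowest.

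Nr1h2, the LXR beta gene (chromosome 7, 44549616 to 44553968, minus strand), had nearly the same mean in both groups. The values were 83.9, 81.5 and 88.3 CPM in ConA and 107, 91.2 and 54.2 CPM in ConA+SIM. ConA+SIM replicate 1 was above and replicate 3 below every ConA library. The log2 fold change was -0.0071 ± 0.37, with a 95% interval from -0.84 to 0.83 (edgeR adjusted p = 0.999). Nr1h3, which encodes the other receptor, LXR alpha, was at 12.7, 7.55 and 15.4 CPM in ConA and at 4.16, 0 and 11.5 CPM in ConA+SIM. The 0 in ConA+SIM replicate 2 allows up to 3 counts, or 0.175 CPM.

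Apoe, the lipid carrier and LXR target (chromosome 7, 19696244 to 19701310, minus strand), was at 247, 247 and 243 CPM in ConA and at 129, 145 and 159 CPM in ConA+SIM. The ConA libraries differed from each other by less than 1 SD of the ConA+SIM libraries, and the groups were far apart relative to both spreads. Means were 246 ± 2.01 and 144 ± 15.2 CPM (SD, n = 3 in each). That is a log2 fold change of -0.77 ± 0.23 (SE, 95% interval -1.29 to -0.24, unadjusted p = 0.00902 by edgeR). After adjustment over all genes the edgeR test did not pass (adjusted p = 0.335), and by p Apoe ranked 279 of 10509 genes. DESeq2 gave a log2 fold change of -0.78 and an adjusted p of 0.0111, and limma-voom -0.77 with an adjusted p of 0.292. Under the alternatives the log2 fold change of Apoe ran from -0.98 to -0.69, the narrowest range of the 9 genes.

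Apoe is also a marker of liver macrophages and is made by hepatocytes, and in such bulk libraries fewer cells of a type and less RNA per cell cannot be told apart. Of 16 listed Kupffer cell, macrophage and monocyte markers, 13 were tested, 10 with lower and 3 with higher values in ConA+SIM (median log2 fold change -1.09, 0 called). Their summed level was 1593 to 3315 CPM in ConA and 1040 to 2591 CPM in ConA+SIM, ranges that overlapped. The 3 with higher values were Ly6c2, Ccr2 and Fcgr1. Ly6c2 was at 295, 200 and 200 CPM in ConA and at 463, 356 and 562 CPM in ConA+SIM, without overlap (log2 fold change 0.99 ± 0.26, unadjusted p = 0.00394, edgeR adjusted p = 0.237). Ccr2 had a log2 fold change of 0.51 ± 0.32 and Fcgr1 one of 0.17. The other 10, Clec4f and Adgre1 of resident macrophages among them, had lower values, and 0 passed. In 3 of the 13, Cd68, Itgam and C1qa, the ConA+SIM libraries lay below the ConA libraries, and in 1, Ly6c2, above them. These orders were seen in 8.57% and 9.18% of tested genes. Cd68 had means of 80.3 CPM in ConA and 17.7 CPM in ConA+SIM, and Itgam 92.2 and 41.4 CPM. C1qa, a complement gene of macrophages, was at 54.7, 63.6 and 25.9 CPM in ConA and at 25, 19.5 and 14.2 CPM in ConA+SIM. Csf1r stood at 113, 140 and 109 CPM and at 129, 24.6 and 46.7 CPM. Clec4f, which marks Kupffer cells, was at 15.2, 12.2 and 0 CPM and at 2.14, 0 and 2.89 CPM, and Adgre1 at 46.7, 38.0 and 13.8 CPM and at 13.3, 0.058 and 24.0 CPM. Lyz2 was lowest in ConA+SIM replicate 2, at 173 CPM, and highest in ConA replicate 1, at 1596 CPM, libraries where Apoe was at 145 and 247 CPM. Hepatocyte markers, 9 of 16 tested, summed to 141 to 253 CPM in ConA and 186 to 309 CPM in ConA+SIM, with Alb at 10.8 to 99.4 CPM. The part of these cells in the Apoe values was not tested.

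Abca1, the exporter of cholesterol to lipid-poor particles (chromosome 4, 53030789 to 53159988, minus strand), varied more within groups than between them. Its values were 45.5, 93.8 and 26.9 CPM in ConA and 10.8, 56.0 and 55.1 CPM in ConA+SIM. The log2 fold change was -0.45 ± 0.72 (95% interval -2.08 to 1.18, edgeR adjusted p = 0.999). It turned to 0.16 without ConA replicate 2, to 0.0061 without ConA+SIM replicate 1 and to 0.30 with offsets for transcript length. Its transcript of 10262 nt was the longest of the 9. Abcg1, the exporter to mature particles (chromosome 17, 31057694 to 31117984, plus strand), was at 22.0, 78.5 and 71.5 CPM in ConA and at 45.9, 43.2 and 47.5 CPM in ConA+SIM. The ConA+SIM libraries lay close together and inside the range of ConA. The log2 fold change was -0.33 ± 0.55 (95% interval -1.57 to 0.91, edgeR adjusted p = 0.999), -0.73 without ConA replicate 1, and 0.16 with offsets for transcript length. So of the 3 LXR-driven lipid export genes, Apoe separated the groups, an order seen in 8.57% of tested genes, while Abca1 and Abcg1 did not. Whether their fold changes differ from that of Apoe was not tested.

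Endothelial cells also express Abca1, and ConA replicate 2, in which Abca1 and Abcg1 were highest, was the library with the most sinusoidal endothelial marker RNA. All 12 listed markers were tested and summed to 432 to 2581 CPM in ConA, with 2581 CPM in replicate 2, and to 412 to 890 CPM in ConA+SIM. Of these, 0 were called and 12 had lower values in ConA+SIM (median log2 fold change -0.93). The same library held the most B and plasma cell marker RNA, 1293 CPM against 114 and 236 CPM in the other ConA libraries and 500 to 953 CPM in ConA+SIM. The part of either cell type in the Abca1 and Abcg1 values was not tested.

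**Figure D2:**
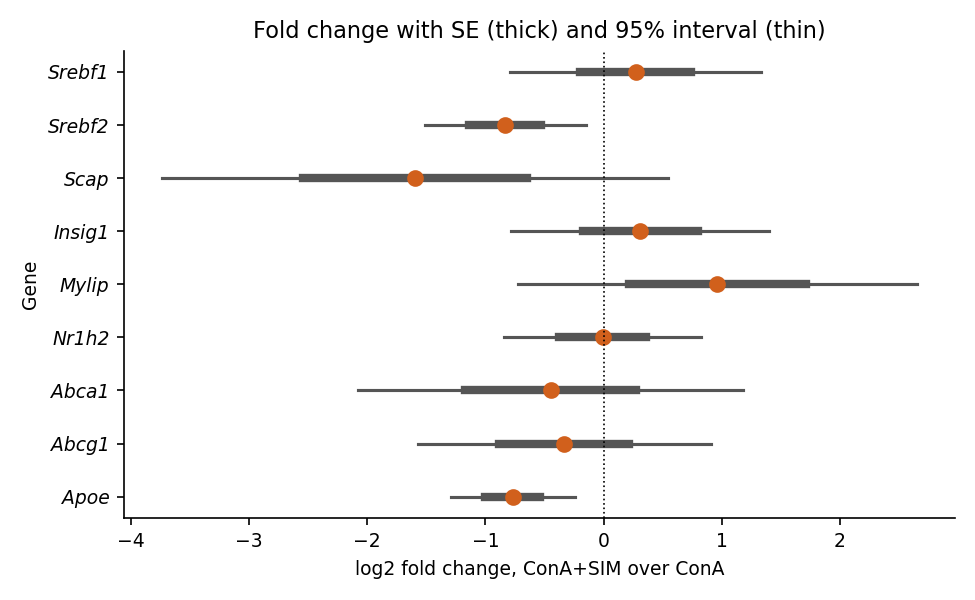
Log2 fold change of ConA+SIM over ConA for each gene, with the SE as a thick and the 95% confidence interval as a thin line, from the edgeR fit across all genes. Before adjustment, the intervals of Srebf2 and Apoe lie below 0, and the interval of Scap is the widest.

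Levels of different genes can be compared only per length of transcript, so CPM was divided by the length in kilobases. Over the 6 libraries the order from the highest mean was Apoe (139 CPM per kilobase), Insig1 (63.4), Nr1h2 (42.2), Srebf2 (38.2), Srebf1 (16.8), Scap (11), Mylip (10.8), Abcg1 (8.82) and Abca1 (4.68). By this measure Apoe was above 94.9% of tested genes with a known length and Abca1 above 22.9%. The ranges of every pair of neighbours in this order overlapped over the 6 libraries. Within ConA, Apoe at 173 to 176 CPM per kilobase did not overlap with Insig1, the next, at 31.5 to 88.9, and Nr1h2 at 40.8 to 44.2 did not overlap with Scap, the next below it there, at 16.3 to 16.8. In ConA+SIM the ranges of all neighbours overlapped, and Scap, at the fifth place in ConA, was at the eighth.

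**Figure D3:**
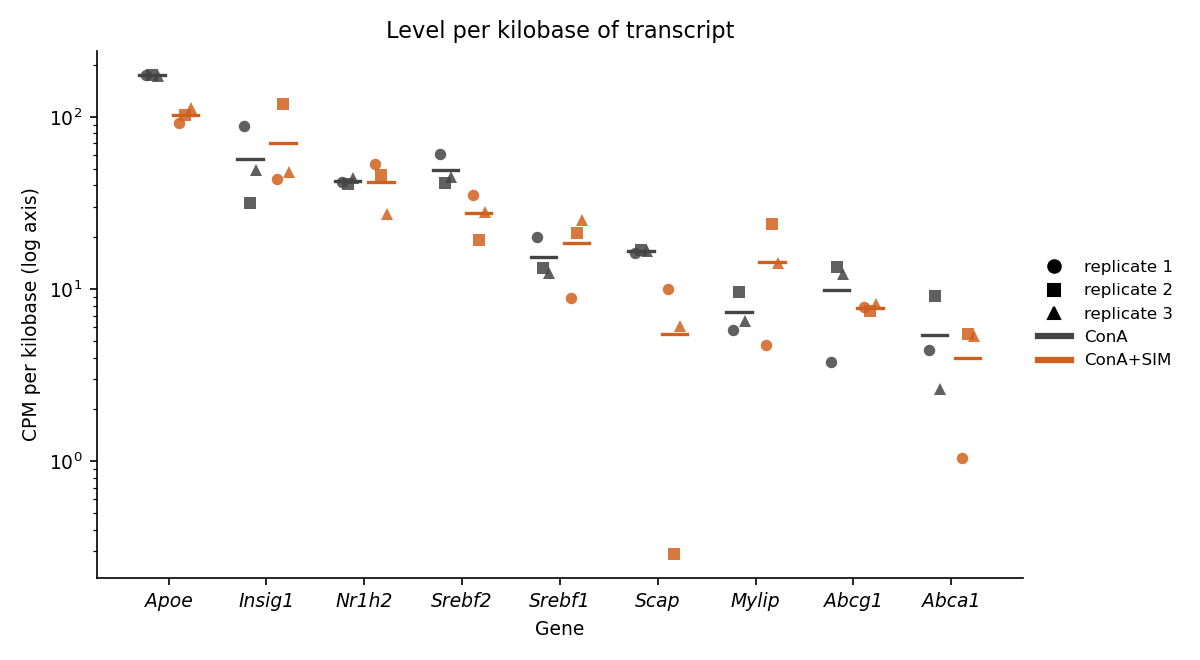
CPM per kilobase of transcript on a log axis, ordered by the mean of the 6 libraries, with symbols for replicates and bars at group means. By group mean Apoe is highest in both groups, and its ConA libraries lie together above those of Insig1. In ConA+SIM the highest single value is Insig1 in replicate 2, at 118.9 against 91.5 to 113 for Apoe.

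Among the 9 genes, the pattern of Srebf2 over the 6 libraries was most like that of Scap (Pearson r = 0.876 on log2 CPM) and least like that of Mylip (r = -0.819). Srebf2 and Apoe had r = 0.747. These values rest on 6 libraries that share groups and depth, and are given as a description. Of all other tested genes, the 3 most like Srebf2 were Zfand3 (r = 0.994), Tgfbi (r = 0.988) and Ccsap (r = 0.987), and the 3 most like Apoe were Xdh (r = 0.993), Aff1 (r = 0.991) and Numa1 (r = 0.989). Those most like Abca1 were Larp4 (r = 0.983), Gatm (r = 0.983, at 0 to 4.03 CPM) and Trmt10b (r = 0.969). In each of the 6 genes most like Srebf2 or Apoe the ConA+SIM libraries also lay below the ConA libraries, as follows from the likeness. Xdh, for example, stood at 103, 116 and 103 CPM in ConA and at 40.6, 52.7 and 54.8 CPM in ConA+SIM.

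The wider pathway was followed in 6 lists of 95 further genes, of which 82 were tested, 0 were called and 2 had an unadjusted p under 0.05. Values were lower in ConA+SIM for 60 and higher for 22, with a median log2 fold change of -0.43 against -0.041 over all tested genes. In 8 of the 82 the ConA+SIM libraries lay below the ConA libraries and in 4 above them, against 8.57% and 9.18% of tested genes. For 5 of the 6 lists the median moved toward or past 0 with the length offsets. In that fit, where the median of all genes was 0.092, the list medians were 0.0024 for SREBP processing, 0.10 for SREBP2 targets and 0.047 for SREBP1 targets, each above 0. They were -0.23 for LXR partners, -0.135 for storage and transport, and -0.50 for other LXR targets. Without ConA+SIM replicate 2 all 6 medians were below 0, and that of SREBP processing was -0.26. Both refits of the lists were chosen after the data were seen.

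Other genes of SREBP processing and degradation numbered 14 tested of 16, with a median of -0.15, 4 higher and 10 lower values. Mbtps1, the first of the proteases that release SREBP, stood at 83.7, 123 and 119 CPM in ConA and at 73.7, 72.8 and 91.9 CPM in ConA+SIM (log2 fold change -0.45 ± 0.33). Sp1, the factor that binds GC boxes, was at 176, 206 and 176 CPM and at 147, 64.5 and 148 CPM, without overlap (-0.64 ± 0.35). Hsp90ab1, a chaperone known to stabilise the complex of SREBP and Scap, had a log2 fold change of -0.34 ± 0.28 and Erlin1, which holds sterol-regulated proteins for degradation, one of -0.49 ± 0.91. Insig2, the second retention factor, was at 5.87 to 52.9 CPM in ConA and 15.5 to 46.9 CPM in ConA+SIM.

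SREBP2 targets of cholesterol synthesis had a median of -0.17 over 20 tested of 21, with 9 higher and 11 lower values. Their summed level was 788 to 1139 CPM in ConA and 941 to 947 CPM in ConA+SIM, so the ConA+SIM range lay inside that of ConA. The members with the smallest p went both ways. Cyp51, a sterol demethylase, was at 97.4, 127 and 104 CPM in ConA and at 151, 186 and 142 CPM in ConA+SIM (log2 fold change 0.54 ± 0.28). Ggps1, which makes the geranylgeranyl group, had 0.66 ± 0.38, also with the ConA+SIM libraries above. Hmgcs1, an early enzyme of the mevalonate pathway, was at 123, 140 and 127 CPM and at 81.8, 78.5 and 117 CPM (-0.49 ± 0.31), with the ConA+SIM libraries below. Sqle, the squalene epoxidase, had -1.25 ± 0.75 with overlap. None of these passed (edgeR adjusted p from 0.673 to 0.805).

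SREBP1 targets of fatty acid synthesis had a median of -0.45 over 15 tested of 17, with 3 higher and 12 lower values and sums of 981 to 1281 CPM in ConA and 776 to 1002 CPM in ConA+SIM. Acly, which makes cytosolic acetyl-CoA, had a log2 fold change of -0.45 ± 0.25, and the desaturase genes Scd2 and Scd1 -0.45 ± 0.31 and -0.90 ± 0.81. Acss2, an acetyl-CoA synthetase, was higher in value, at 34.9, 14.7 and 35.9 CPM in ConA and at 59.5, 80.7 and 41.7 CPM in ConA+SIM (1.09 ± 0.57, edgeR adjusted p = 0.684).

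Other LXR targets and efflux genes had a median of -0.49 over 11 tested of 15, with 2 higher and 9 lower values. Smpdl3a, a sterol-responsive phosphodiesterase and known LXR target, was 1 of the 2 with higher values, at 159, 120 and 191 CPM in ConA and at 285, 244 and 270 CPM in ConA+SIM, without overlap. The other was Cd5l, with 0.32 ± 3.14. For Smpdl3a the log2 fold change was 0.76 ± 0.26 (unadjusted p = 0.0155, edgeR adjusted p = 0.392). Mertk, a receptor for the uptake of dying cells that macrophages carry, was at 16.7, 17.6 and 17 CPM in ConA and at 0, 0 and 1.5 CPM in ConA+SIM. Scarb1, a lipoprotein receptor, and Abca7, a relative of Abca1, had log2 fold changes of -1.61 ± 0.91 and -0.49 ± 0.33. Of these 11 genes, the ConA+SIM libraries lay below the ConA libraries in 1, Mertk, and above them in 1, Smpdl3a. Apoe, among the 9, lay below. Such orders were seen in 8.57% (below) and 9.18% (above) of tested genes.

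LXR partners and cofactors had lower values in 8 of 8 tested genes of 10 listed, with a median of -0.69 (-0.23 with the length offsets) and sums of 952 to 1205 CPM in ConA and 552 to 735 CPM in ConA+SIM. The sums did not overlap. All 8 have long transcripts, from 4897 to 9566 nt, and with the length offsets 6 had lower and 2 higher values. The coactivator Ncoa3 was at 301, 280 and 312 CPM in ConA and at 135, 141 and 235 CPM in ConA+SIM (log2 fold change -0.81 ± 0.28, unadjusted p = 0.0165, edgeR adjusted p = 0.392). Ncor1, the corepressor, had -0.55 ± 0.33, and the coactivators Ncoa2 and Ep300 -0.53 ± 0.34 and -0.57 ± 0.38. These are cofactors of many nuclear receptors, not of LXR alone. Cholesterol storage and transport genes had a median of -0.47 over 14 tested of 16, with 4 higher and 10 lower values. Npc2, which moves cholesterol out of lysosomes, was at 443, 541 and 631 CPM in ConA and at 596, 700.5 and 647 CPM in ConA+SIM (0.27 ± 0.20). Osbp, an oxysterol-binding protein, had -0.90 ± 0.52, Gramd1b, a sterol carrier at membrane contacts, -0.58 ± 0.41, and Tspo, of the outer mitochondrial membrane, 0.61 ± 0.35.

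**Figure D4:**
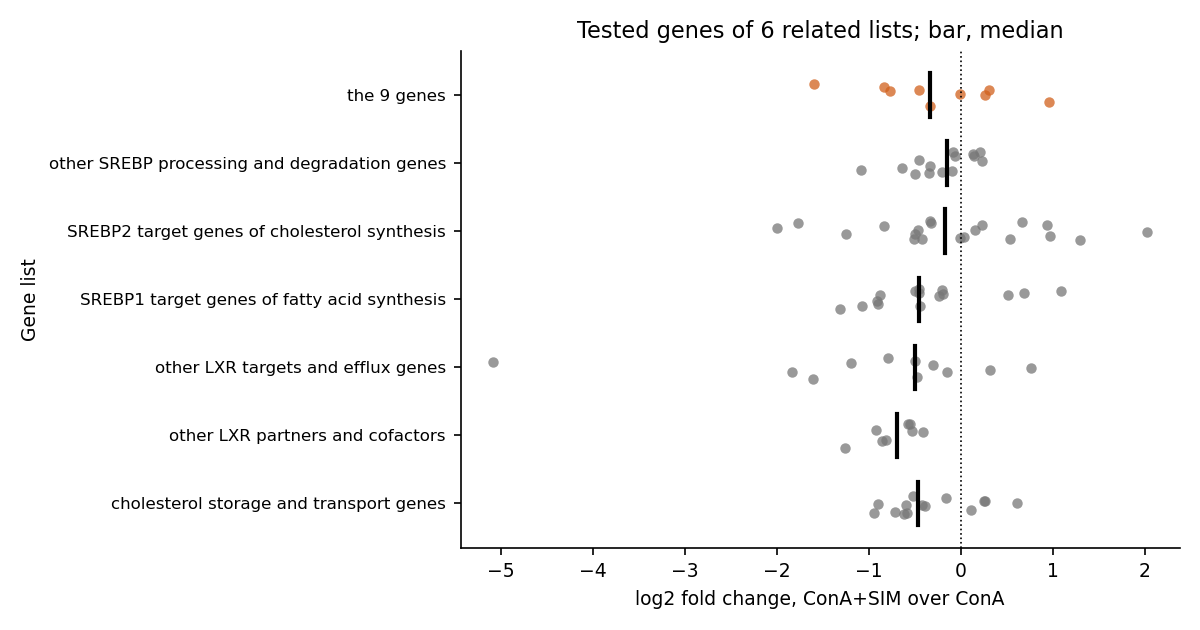
Log2 fold change of ConA+SIM over ConA for each tested gene of the 9 (orange) and of the 6 related lists (grey), with a bar at each median. The medians lie between -0.69 and -0.15; the point at -5.08 is Mertk, whose ConA+SIM libraries include 2 at 0, so its place depends on the prior count of the fit.

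The direction of the fold change was the same in all 15 alternatives for Srebf2, Scap, Mylip and Apoe, and changed in at least 1 of them for the other 5 genes. Every reversal belonged to a gene whose 95% interval included 0. Offsets that removed each library's trend with transcript length moved the median log2 fold change of all genes by 0.132, to 0.092. Beside that median Srebf2 was at -0.52 and Apoe, with the shortest transcript of the 9 at 1408 nt, at -0.98.

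**Figure D5:**
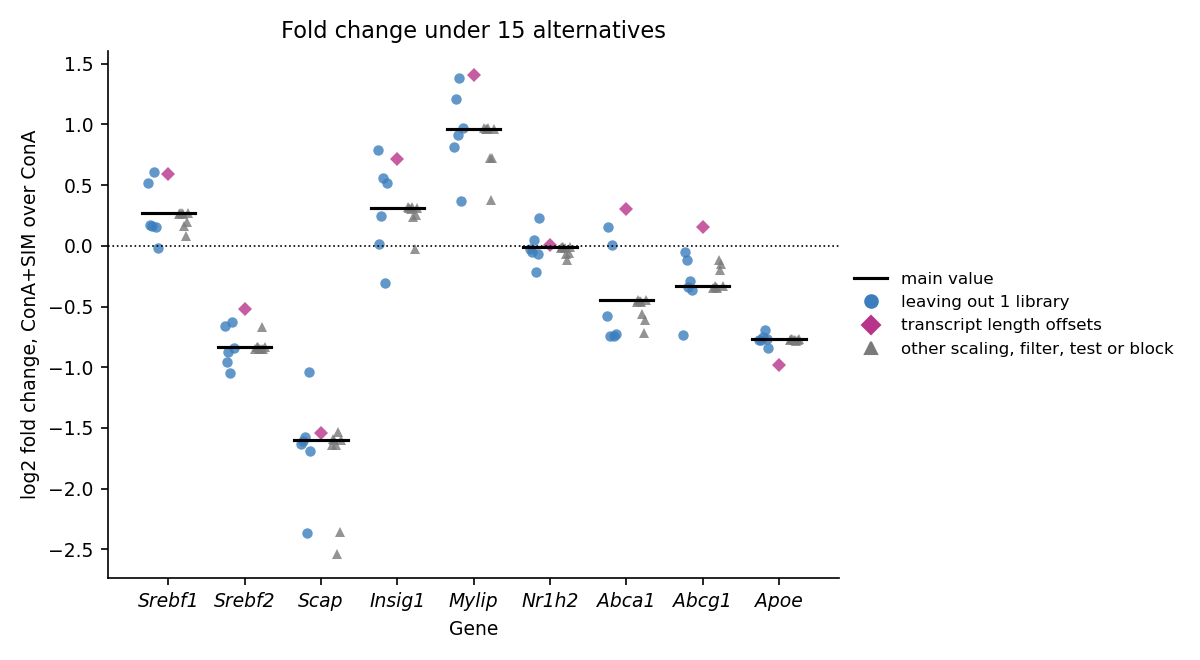
Log2 fold change of each gene in the main fit (black bar) and under 15 alternatives: 1 library left out (blue), transcript length offsets (purple) and other scalings, filters, tests or the replicate block (grey). All values of Apoe lie between -0.98 and -0.69, and those of Abca1 and Insig1 lie on both sides of 0.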

How the data were processed

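RNA was sequenced from 6 samples. HISAT2 2.1.0 and GRCm38 are named in the submitters' processing notes, while the sources used here do not give the counting tool, annotation or strand setting. Raw counts were deposited by the authors per gene, not normalized, in 1 column per sample. Genes were kept with filterByExpr, scaled with TMM and tested with edgeR 4.0.16 (quasi-likelihood F test, robust, no covariate, R 4.3.3), with Benjamini-Hochberg adjustment over all tested genes and a threshold of 0.05. CPM, counts per 1000000, is relative to the TMM-scaled total. Coordinates and promoters are from RefSeq (GRCm38.p6), transcript lengths from GENCODE M21, which covered 95.5% of tested genes.

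The 9 genes, the related lists and the marker lists were chosen with earlier results of these data known. Named genes are all 9, up to 4 of each related list with the smallest p, the 3 most like Srebf2, Apoe and Abca1 by Pearson r, and set markers. Insig2, Nr1h3, Ly6c2, Ccr2, Fcgr1, Cd5l, Cd68, Itgam, S100a8, S100a9, Cd3d, Cd3g, Cd247, Cd8b1 and Klrb1c, named outside this rule, were chosen after their values were seen. Members are compared as single genes, and lists by counts and medians. Separate animals are not stated for the libraries of a group, and the p-values then reflect only how these libraries vary, possibly for technical reasons. Within groups, chi-square statistics of library pairs were 147 to 305 times their degrees of freedom, far above counting noise, so none is a copy of another library's counts. Separate preparations of 1 RNA sample cannot be told apart from separate animals by this. Same-numbered libraries did not deviate together (r = 0.00878 to 0.0328). On simulated data for ConA+SIM over ConA, with 10509 genes, edgeR called 16.3% of genes changed 4-fold, 0% of those changed 2-fold and 4 unchanged genes. Alternatives were RLE scaling, no filter, 5 CPM in 3 libraries, DESeq2 1.42.0, limma-voom (limma 3.58.1) with and without quality weights, the replicate block, each library left out, transcript length offsets and summed copy rows.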

Additional observations from a re-analysis of the deposited data

How the results depend on the processing

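Each of the 9 genes was refitted under 15 alternatives. Of these 135 fits of single genes, 123 kept direction and side of the threshold, 2 passed it and 10 changed direction. The 2 were Srebf2 (-0.85) and Apoe (-0.78) with DESeq2, which called 2 of the 9 genes; it gave no adjusted p for Mylip. Direction changed with offsets for transcript length for Nr1h2 (0.010), Abca1 (0.30) and Abcg1 (0.16), and for Insig1 with quality weights (-0.028). Leaving out 1 library at a time gave 0 of the 9 genes called each time, with log2 fold changes from -0.021 to 0.60 for Srebf1, -0.30 to 0.79 for Insig1, -0.22 to 0.23 for Nr1h2, -0.75 to 0.16 for Abca1, -1.05 to -0.63 for Srebf2, -2.36 to -1.04 for Scap, 0.37 to 1.38 for Mylip, -0.73 to -0.055 for Abcg1 and -0.84 to -0.69 for Apoe. The reversals came without ConA+SIM replicate 3 (Srebf1 at -0.021, Nr1h2 at 0.23), ConA replicate 3 (Nr1h2 at 0.049), ConA+SIM replicate 2 (Insig1 at -0.30), ConA replicate 2 (Abca1 at 0.16) and ConA+SIM replicate 1 (Abca1 at 0.0061). Over all genes, 57 were called higher and 0 lower in the main fit, 356 and 199 with DESeq2, 108 and 7 with limma-voom and 110 and 4 with quality weights. With the replicate block 0 were called higher, and with length offsets 0; RLE scaling and no filter called 1 lower each. Without 1 library, 0 to 3 were called higher and 0 lower. The replicate numbers of the titles do not show a pairing, and with the block Srebf2 was at -0.85 (edgeR adjusted p = 0.509) and Apoe at -0.77 (0.540), neither called. With the length offsets, list medians turned to 0.0024 (SREBP processing), 0.10 (SREBP2 targets) and 0.047 (SREBP1 targets). The median of all genes was 0.092 in that fit, above those of SREBP processing and SREBP1 targets. The causes of these moves were not tested. In the simulated data, 0 of 108 genes changed 2-fold were called. That share is over all such genes together and does not give the share at the spread of these 9. Their own biological coefficients of variation ran from 0.26 for Apoe to 0.823 for Scap, against 1.12 common to the genes.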
